A study of Mus musculus with 3 samples.

Results

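The suppressors of cytokine signalling (SOCS) are a family of 8 genes, Socs1 to Socs7 and Cish, and all 8 were found by symbol among the 55536 annotated genes of the deposited tables, 22028 of which are protein-coding. The members are the whole family by name, and the rule that lists them uses no measured value. They were measured in 3 libraries that form a single group. The cells were bone-marrow-derived macrophages of the C57BL/6J mouse strain, grown from marrow in culture, with no genetic change given in the labels. Every culture had received Lipid A, the Toll-like receptor 4 agonist of bacterial lipopolysaccharide, at 100 ng/ml for 12 h, was then washed out for 12 h, and was stimulated again with Lipid A at 100 ng/ml for 40 min. RNA of the chromatin fraction, in which transcripts still being made are enriched, was depleted of ribosomal RNA and sequenced. Age and sex were not recorded in the labels. The labels number the libraries as biological replicates 1, 2 and 3 under 1 shared donor entry. With 1 group there is no unstimulated or singly stimulated sample to set the levels against, so levels, order, isoforms and spread are described and no induction is given.

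SOCS proteins carry an SH2 domain, which binds phosphorylated tyrosine on cytokine receptors or kinases, and a C-terminal SOCS box, which binds elongins B and C and brings in a Cullin 5 ubiquitin ligase. The best known of them close a feedback loop. A cytokine receptor activates its JAK kinase, the kinase activates a STAT transcription factor, the STAT switches on the SOCS gene, and the SOCS protein then silences the receptor or the kinase. Socs1 and Socs3 encode the members with a kinase inhibitory region that blocks JAKs directly. In macrophages Socs3 is known for limiting signals of the interleukin-6 receptor chain gp130, and Socs1 for limiting interferon signals and responses to lipopolysaccharide.

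The cells carried a macrophage signature. All 8 macrophage markers asked for (Adgre1, Csf1r, Cd68, Itgam, Mertk, Lyz2, Fcgr1 and Mrc1) lay among the most abundant decile of coding genes, and their summed levels were 1022, 1137 and 1003 TPM (transcripts per 1000000, a level that corrects for transcript length) in replicates 1, 2 and 3. With detection set at a mean of at least 10 counts, 0 of 6 neutrophil, 0 of 5 T cell and 0 of 5 B cell markers were detected, and Ly6g, Cd3d, Cd3e and Cd3g had no count. In the table made directly from the reads, an alternative quantification deposited by the authors, Cd3d averaged 15.6 TPM, and 0 of 6 neutrophil, 3 of 5 T cell, 1 of 5 B cell, 2 of 4 natural killer, 4 of 5 dendritic cell and 5 of 5 fibroblast markers reached 10 counts, beside 66.9% of all protein-coding genes. Of the natural killer, dendritic cell and fibroblast markers, 1 of 4, 1 of 5 and 3 of 5 were detected, and each of these lists summed to at most 1.78 TPM in any library. The libraries held 13802716, 17187524 and 16502809 counts in annotated genes, and RNA input was 1 µg, 250 ng and 500 ng, for replicates 1, 2 and 3. In bulk RNA, fewer expressing cells and less RNA per cell cannot be told apart.

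The stretch before the annotated start is shown for the pair of members with a kinase inhibitory region, because their levels lay far apart. Each is the 250 bases upstream of the RefSeq start on GRCm38.p6, on the minus strand, read 5′ to 3′ toward the gene, at chr11:117969367-117969616 for Socs3 and chr16:10785537-10785786 for Socs1. Part of the Socs3 window falls in an exon of the non-coding transcript Socs3-203, and the Socs1 window ends at the base before the annotated gene. Capitals mark the letters TTCNNNGAA, the pattern of a STAT element (GAS), and GAAANNGAA, a pattern close to the interferon-stimulated response element.
Socs3: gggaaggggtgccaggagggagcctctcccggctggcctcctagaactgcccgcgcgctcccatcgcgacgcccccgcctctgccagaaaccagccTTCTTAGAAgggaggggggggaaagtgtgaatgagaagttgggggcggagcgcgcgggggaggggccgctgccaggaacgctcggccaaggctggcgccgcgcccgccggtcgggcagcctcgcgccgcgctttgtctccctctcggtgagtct
Socs1: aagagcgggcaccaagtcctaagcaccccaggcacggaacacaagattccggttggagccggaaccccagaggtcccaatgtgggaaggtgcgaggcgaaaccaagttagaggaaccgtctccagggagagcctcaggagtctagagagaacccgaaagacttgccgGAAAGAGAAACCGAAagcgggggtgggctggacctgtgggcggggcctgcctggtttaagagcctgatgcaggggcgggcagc
Cish, a textbook target of STAT5, is shown by 20 bases that begin at its RefSeq start, on the plus strand at chr9:107296659-107296678, which GENCODE places inside the first exon of Cish-201.
Cish: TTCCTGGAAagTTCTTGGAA

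Both strands of the 300-base windows (250 before and 50 after the start) of 4 members, Socs1, Socs3, Socs4 and Cish, were searched for these patterns and for TGANTCA, an AP-1 pattern. Socs3 held 1 match to TTCNNNGAA, from 154 to 146 bases before the start. Cish held 2 that do not overlap, and Socs1 held 2 overlapping matches to GAAANNGAA between 83 and 69 bases before the start. Socs4 held none of the 3 patterns, and none of the 4 windows held TGANTCA. Among 32851 RefSeq promoter windows of the same length, 8.3% held TTCNNNGAA, 8.56% held GAAANNGAA and 7.81% held TGANTCA. A match describes these letters only. The windows of Socs2, Socs5, Socs6 and Socs7 were not analysed here.

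Socs3 stood far above the rest of the family on chromatin. Socs3 (ENSMUSG00000053113.3, mm10 chr11:117966079-117970047, minus strand) had 92.7, 87.0 and 139.9 TPM in replicates 1, 2 and 3, a mean of 107 ± 29.0 TPM (SD, n = 3 libraries, as for all means here). Replicate 3 was the highest library, and the lowest of the 3 Socs3 values was above every value of the other 7 members. Socs3 held 79.3%, 69.9% and 79.5% of the family's summed TPM in replicates 1, 2 and 3, and its counts were 3021, 2840 and 4286.

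Socs1, which shares the kinase inhibitory region with Socs3, was low. Socs1 (ENSMUSG00000038037.5, chr16:10782240-10785536, minus strand) had 1.90, 2.65 and 1.79 TPM in replicates 1, 2 and 3, a mean of 2.11 ± 0.468, from 70, 99 and 63 counts. Within each library the level of Socs3 was 48.8, 32.8 and 78.1 times that of Socs1, in the same order. Socs1 was highest in replicate 2 and Socs3 in replicate 3. In the table made from the reads, Socs3 averaged 83.7 TPM and Socs1 1.74 TPM.

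In the gene tables the other cytokine-induced members were lower still, and Socs2 was below the detection minimum. Cish (ENSMUSG00000032578.7, chr9:107296026-107302784, plus strand), which restrains signals of STAT5-activating receptors, had 0.61, 0.79 and 1.39 TPM in replicates 1, 2 and 3, a mean of 0.930 ± 0.408, from 32.4, 46 and 77 counts. Socs2 (ENSMUSG00000020027.18, chr10:95385362-95417180, minus strand), known for limiting growth hormone signalling, had 0.74, 0.12 and 0.32 TPM, a mean of 0.393 ± 0.316. It is the 1 member that missed the detection minimum, with 8, 3.69 and 5 counts. The exact Poisson 95% intervals of its rounded counts, which cover counting error only, ran from 3.45 to 15.8, from 1.09 to 10.2 and from 1.62 to 11.7, so they overlap between all 3 libraries. In the table made from the reads Socs2 was detected, with 2.94, 2.22 and 2.68 TPM in replicates 1, 2 and 3, above Socs1 in every library.

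Socs4 to Socs7, known mainly from growth factor and insulin signalling rather than from a STAT feedback loop, lay in a narrow band below Socs3. Socs4 (ENSMUSG00000048379.9, chr14:47276931-47296102, plus strand), studied with the epidermal growth factor receptor, had 6.88, 11.5 and 12.2 TPM in replicates 1, 2 and 3, a mean of 10.2 ± 2.90. Socs5 (ENSMUSG00000037104.9, chr17:87107679-87137839, plus strand), its closest relative, had 4.89, 7.27 and 9.70 TPM, a mean of 7.29 ± 2.41. Replicate 1 was the lowest library for both, and Socs4 was above Socs5 in all 3 libraries although their ranges overlap. Socs7 (ENSMUSG00000038485.5, chr11:97362551-97398542, plus strand), studied in insulin signalling, had 4.73, 7.48 and 6.35 TPM, a mean of 6.19 ± 1.38. Socs6 (ENSMUSG00000056153.15, chromosome 18, 88665224 to 88927481, minus strand), also studied in receptor tyrosine kinase signalling, had 4.39, 7.63 and 4.34 TPM, a mean of 5.45 ± 1.89. Both were highest in replicate 2, and the ranges of Socs5, Socs7 and Socs6 overlap one another.

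**Figure D1:**
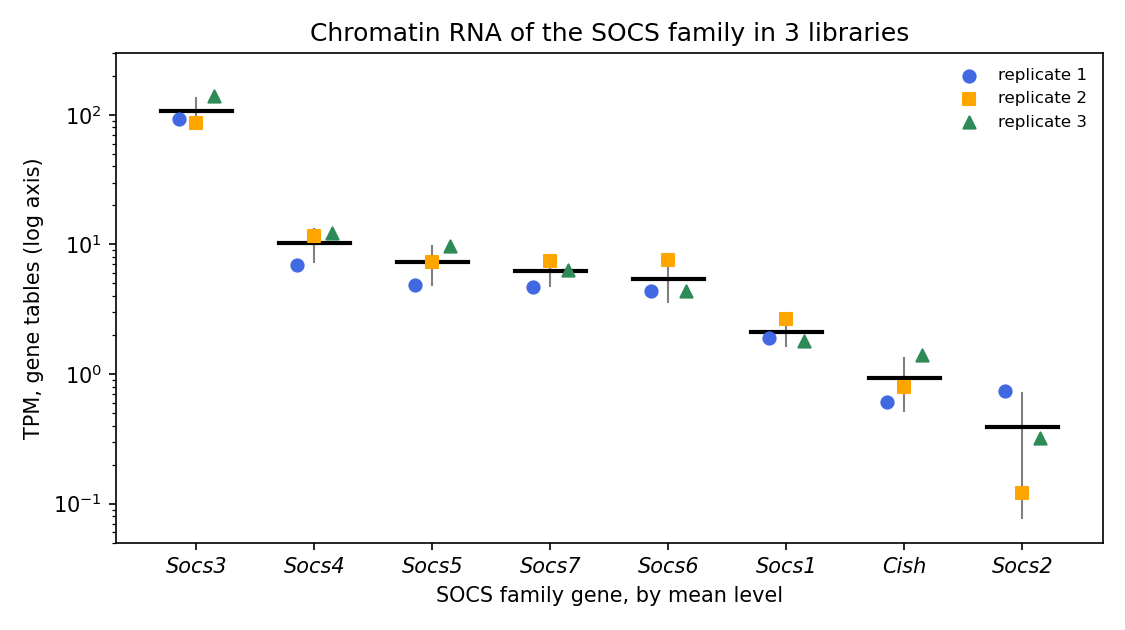
Level of each SOCS family gene (TPM on a log axis, from the gene tables) in the 3 libraries, ordered by mean. Points are libraries, horizontal bars are means and vertical lines are ± 1 SD; Socs3, between 87.0 and 139.9 TPM, sits above all others, and Socs4, Socs5, Socs7 and Socs6 lie together between 4.34 and 12.2 TPM.

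The order of mean levels was Socs3, Socs4, Socs5, Socs7, Socs6, Socs1, Cish and Socs2. Of the 7 neighbouring pairs in it, 3 had ranges that do not overlap: Socs3 over Socs4, Socs6 over Socs1 and Socs1 over Cish. In the table made from the reads Socs3 and Socs4 kept the first and second place, with 83.7 and 9.69 TPM. Below them stood Socs6 with 8.66, Socs7 with 8.19, Socs5 with 6.02, Socs2 with 2.61, Socs1 with 1.74 and Cish with 1.06 TPM. The neighbouring pairs with separate ranges there were Socs3 over Socs4, Socs5 over Socs2 and Socs2 over Socs1. The ranges of Socs1, 1.46 to 1.93 TPM, and Cish, 0.643 to 1.85 TPM, overlap in that table. With protein-coding transcripts alone, Socs6 with 4.81 TPM stood above Socs5 with 3.73 and Socs7 with 3.72. Socs2 with 0.303 TPM then stood above Cish with 0.203. Detection took in 7 of the 8 members, beside 49.7% of all protein-coding genes, and 1 member, Socs3, was in the top decile, which holds 10% of them by construction. Socs3 was at percentile 97.5 of protein-coding genes by mean TPM, and Socs4, Socs5, Socs7 and Socs6 were between percentiles 71.5 and 78.9. Socs1, Cish and Socs2 were at 61.8, 55.0 and 49.3. In the table made from the reads Socs3 was at percentile 95.32, and Socs2, Socs1 and Cish were at 54.65, 49.98 and 44.53. The median over the 8 members was 5.82 TPM, against 0.44 TPM over all protein-coding genes and 7.32 TPM over those detected.

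The spread between libraries was larger than counting error for most detected members, as for most genes. Counts scaled by TMM (edgeR's correction of library size) were tested against Poisson sampling with a chi-square test over all 10952 protein-coding genes that passed detection, with Benjamini-Hochberg adjustment. This compares these 3 libraries, not conditions. At an adjusted p under 0.05, 5 of the 7 tested members varied, beside 58.3% of all tested genes, so the family's share is near the background. Socs3 differed 1.80 times between its highest and lowest scaled count, 4411 in replicate 3 and 2445 in replicate 2 (adjusted p = 3.24e-131). Socs4 differed 1.50 times (adjusted p = 1.55e-14) and was highest in replicate 3. Socs5 differed 1.47 times (adjusted p = 2.15e-06) and Cish 2.12 times (adjusted p = 7.98e-05). Both were highest in replicate 3, and without that library their adjusted p was 0.810 and 0.857.

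Socs6 had its highest library in replicate 2, with a 1.66-fold range of scaled counts (adjusted p = 2.02e-10). Without replicate 2 its adjusted p was 0.297. Socs7 and Socs1 did not pass, with ranges of 1.13 and 1.31 times and adjusted p-values of 0.334 and 0.285. Scaled by total counts instead of TMM, Socs7 (adjusted p = 0.000206) and Socs1 (adjusted p = 0.0319) passed as well, beside 68.4% of all tested genes. The biological coefficient of variation that edgeR estimated was 0.159 for Socs7 and 0.294 for Cish, the lowest and highest of the tested members. Its median over all tested genes was 0.197. At the abundance of each gene, edgeR's trend over all tested genes was 0.179 for Socs7 and 0.251 for Cish. RNA input and depth differed between the same 3 libraries, and their part in the spread was not tested.

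**Figure D2:**
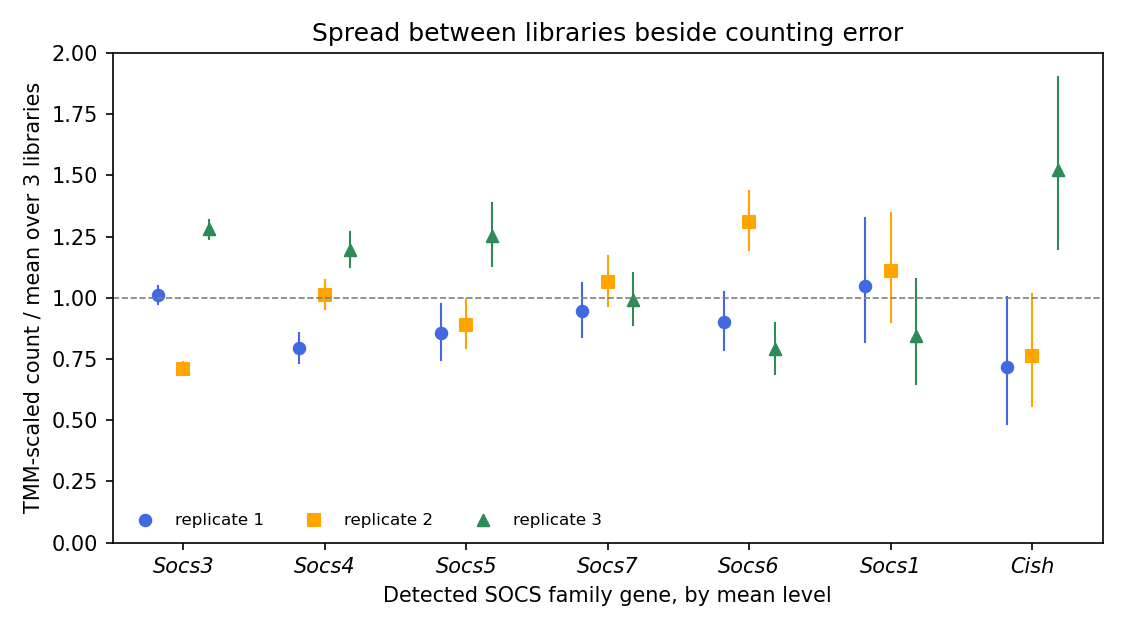
TMM-scaled count of each detected SOCS family gene in each library, divided by the gene's mean over the 3 libraries; the dashed line marks the mean. Vertical lines are exact Poisson 95% intervals of the count (counting error only); replicate 3 is highest for Socs3, Socs4, Socs5 and Cish, replicate 2 for Socs6, and all points of Socs7 have intervals that reach the line.

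The annotated transcripts differed in kind between members. Socs3, Socs4 and Socs1 had nearly all of their signal in protein-coding transcripts. Socs3-201, which carries the whole 675-base coding sequence, held 99.4%, 99.6% and 99.8% of the Socs3 TPM in replicates 1, 2 and 3. Socs4-201 held 100% of the Socs4 TPM in every library, and 84.1% in the table made from the reads, where the short Socs4-202 took 15.9% from a mean of 10.1 counts. Both annotated Socs1 transcripts hold the same 636-base coding sequence and differ before it, by an extension of exon 2. Socs1-202 held 50.5%, 68.8% and 83.8% of the Socs1 TPM in replicates 1, 2 and 3, and Socs1-201 held the rest, 49.5%, 31.2% and 16.2%. In the table made from the reads Socs1-202 held 74.6%, 100% and 85.3%, so the rise from replicate 1 to 3 was not repeated.

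Cish showed the opposite pattern, since little of its signal lay in a transcript with the complete reading frame. The non-coding Cish-202 held 24.3, 40.5 and 69.5 of the Cish counts in replicates 1, 2 and 3, and Cish-201, the transcript with the full 771-base coding sequence, held 1.41, 0 and 3.51. The highest count of Cish-201 in any library was below the lowest of Cish-202. Cish-204, which is annotated as coding but carries 186 coding bases, held 6.60, 5.53 and 3.95 counts. The non-coding Cish-205 had no count here, and in the table made from the reads it had 2.48 counts in replicate 3 and none in the others. Exons of Cish-202 include 2772 of the 2889 bases of intron 1, which lie in no exon of a coding Cish transcript. The boundary of exon 1 is shown in 30 bases, with coding letters in capitals and intron letters in lower case. Cish-201 joins chr9:107297020-107297034 to chr9:107299924-107299938, and Cish-202 reads on through chr9:107297035-107297049 (mm10, plus strand).
Cish-201: CCTTTGCGTACAGGGATCTTGTCCTTTGCT
Cish-202: CCTTTGCGTACAGGGgtaagctcagttttt

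Non-coding transcripts took 75.2%, 88.0% and 90.3% of the Cish counts in replicates 1, 2 and 3. Over the 3 libraries together the share was 86.5%, at percentile 94.8 of 8892 detected protein-coding genes that have an annotated non-coding transcript, whose median was 26.6%. It was 91.6% in the table made from the reads, where the median was 35.4%. Both tables cover annotated transcripts only, so intron reads of a gene enter them where a transcript model includes that intron. On the opposite strand, 2 annotated genes share 479 and 261 exon bases with Cish, with 0 counts in every library for the antisense gene and at most 2.65 counts for the pseudogene. The strand setting of the counting is not given in the sources used here.

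**Figure D3:**
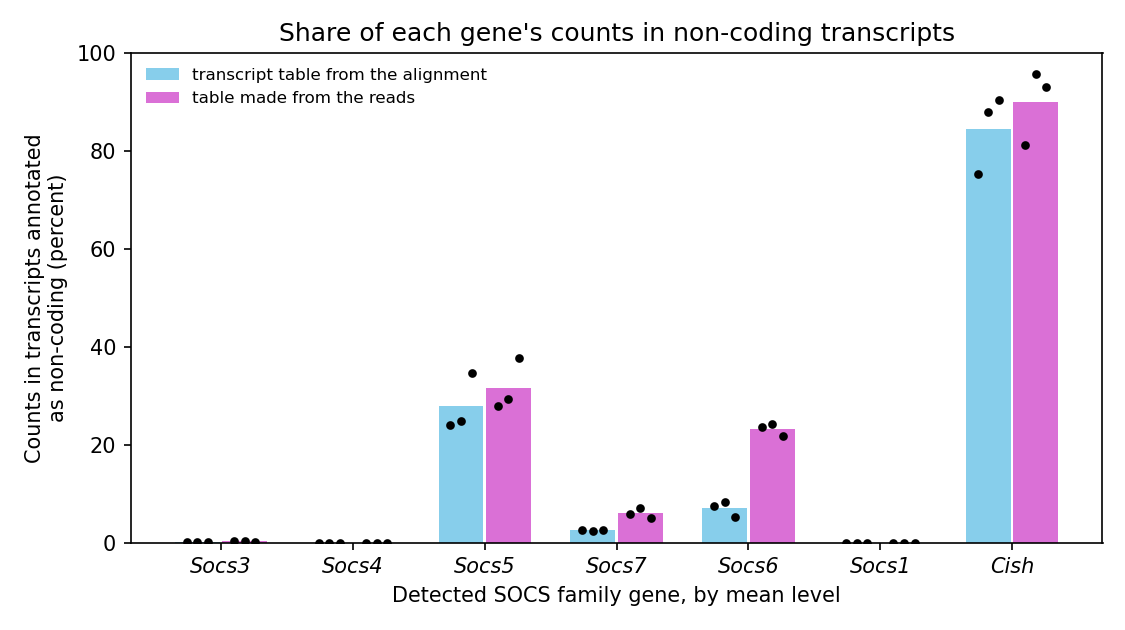
Percent of each detected SOCS family gene's counts in transcripts annotated as non-coding, in the transcript table from the alignment and in the table made from the reads. Bars are means and points the 3 libraries; Cish lies between 75.2% and 95.7%, Socs5 between 24.0% and 37.6%, and Socs3, Socs4 and Socs1 are at or near 0.

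Socs5 divided its signal between a coding and a non-coding transcript. Socs5-201, with the whole 1608-base coding sequence, had 171, 231 and 240 counts in replicates 1, 2 and 3, and the non-coding Socs5-202, which ends inside an intron of Socs5-201, had 54, 78 and 128. Per length they were close, with Socs5-201 at 56.4%, 50.6% and 42.2% of the Socs5 TPM and Socs5-202 at 43.6%, 42.8% and 56.0%. In this table the non-coding transcript led in replicate 3 only. Quantified directly from the reads, Socs5-202 held 48.6%, 45.6% and 58.7% of the Socs5 TPM in replicates 1, 2 and 3, against 51.4%, 42.8% and 39.2% for Socs5-201, so it led in replicates 2 and 3 and on average. By counts its share over the libraries was 28.6%, near the median of all such genes.

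Socs6 and Socs7 depended on the table and the scale. Of the Socs6 TPM, the coding transcripts Socs6-201, Socs6-202 and Socs6-203 held 44.6%, 23.5% and 20.4% on average, and the non-coding Socs6-209 held 6.95%. In the table made from the reads the non-coding Socs6-204 led with 32.5%, from 67.9, 146 and 66.9 counts in replicates 1, 2 and 3, against 4.37, 9.97 and 1.00 in the transcript table from the alignment. The coding Socs6-201, Socs6-202, Socs6-203 and Socs6-205 then held 22.3%, 1.10%, 24.1% and 12.1%.

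For Socs7 the divide was between counts and length. The 7015-base coding transcript Socs7-201 had 285, 430 and 334 counts in replicates 1, 2 and 3, and the 506-base non-coding Socs7-202 had 7.37, 10.5 and 9.04. Because TPM divides by length, those few counts gave Socs7-202 36.6%, 40.5% and 41.8% of the Socs7 TPM, and 2.51% of its counts over the libraries. In the table made from the reads Socs7-202 led, with 58.06%, 63.77% and 54.55% of the Socs7 TPM in replicates 1, 2 and 3. By counts it held 6.12% there. The 2 models meet at the same exon, and the joins are shown with coding letters in capitals (chromosome 11, mm10, plus strand). Socs7-201 joins chr11:97377084-97377098, and Socs7-202 joins the non-coding chr11:97377672-97377686, to chr11:97377936-97377950.
Socs7-201: CACCCCACGCCCCAGATGCGTTTCCCCGAA
Socs7-202: agtcaccttagtcagATGCGTTTCCCCGAA

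Socs2 was the member whose count depended most on the table. In the table made from the reads it had 82.8, 109.7 and 126.8 counts in replicates 1, 2 and 3, against 8, 3.69 and 5 in the gene tables, a ratio of 19.1 between the means. The median ratio was 1.68 over detected protein-coding genes. Of the protein-coding genes with a mean of 3 to under 10 counts, 23.7% had a count at least 10 times higher in the table made from the reads, and 34.3% of the undetected ones reached 10 counts there, where 66.9% of all were detected. Most of the added Socs2 counts lay in Socs2-206, a retained-intron transcript with no base in an exon of a coding Socs2 transcript, with 49.5, 73.5 and 85.5 counts. The transcript table from the alignment gave Socs2-206 0, 1 and 0 counts.

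Around the family, most of the listed JAK, STAT and cytokine receptor genes were detected, beside 49.7% of all protein-coding genes. All 4 JAK kinase genes were in the top decile, led by Tyk2 with 89.4 ± 11.4, Jak2 with 43.4 ± 11.2 and Jak1 with 39.7 ± 4.41 TPM. All 7 STAT genes were detected and 4 were in the top decile, among them Stat2 with 512 ± 45.9 and Stat3, the factor downstream of gp130 and the interleukin-10 receptor, with 140.9 ± 41.2 TPM. Of 26 cytokine receptor genes, 20 were detected and 12 were in the top decile, led by Csf2ra with 212 ± 47.9, Il2rg with 105 ± 21.2 and Il10ra with 104 ± 10.8 TPM, while Il27ra, Osmr and Lepr were not detected. Of 17 ligand genes 9 were detected, near the 49.7% over all protein-coding genes. They were led by Il15 with 60.8 ± 18.7, Ebi3 with 26.2 ± 12.0 and Il10 with 21.2 ± 8.79 TPM. Il12a, Csf2 and Csf3 were among those not detected. In the table made from the reads Il15 averaged 307 and Jak1 100.5 TPM, the latter above Tyk2 with 88.6. Csf2rb with 182.8 and Csf3r with 130.8 TPM stood above Il2rg and Il10ra, and Il27 with 39.1 TPM above Ebi3 and Il10. There 25 of the 26 receptor genes and 11 of the 17 ligand genes reached 10 counts, beside 66.9% of all protein-coding genes. These lists were chosen with earlier results of these data known.

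The 6 listed genes of elongin and cullin ligases were all detected and none was in the top decile. Eloc (elongin C) was at 23.2 ± 8.77, Rbx1 at 14.1 ± 5.30 and Cul5, the cullin of SOCS ligases, at 12.1 ± 1.98 TPM. The lowest were Elob (elongin B), with 3.19 ± 0.568 TPM from a mean of 12.3 counts, just above the detection minimum, and Rnf7 with 3.01 ± 2.42 TPM; both were named after their values were seen. Of 27 other SOCS-box genes 13 were detected, near the 49.7% over all protein-coding genes. In the table made from the reads 19 of them reached 10 counts. The highest were Wsb1 with 401 ± 52.6, Wsb2 with 34.7 ± 7.66 and Neurl2 with 15.4 ± 4.81 TPM. Spsb1, Asb2 and Asb4 were not detected in the gene tables. All 13 other inhibitors of the pathway were detected and 6 were in the top decile, led by the phosphatase gene Ptprc with 715 ± 98.9 and the ubiquitin ligase genes Cbl and Cblb with 85.4 ± 5.40 and 67.7 ± 16.0 TPM. In the table made from the reads Cbl averaged 321 TPM. Ptpn1 with 267.6, Usp18 with 109.8 and Ptpn6 with 109.6 TPM stood above Cblb with 77.3 there. All 12 textbook STAT target genes were detected and 9 were in the top decile, led by Irf1 with 756 ± 128, Icam1 with 409 ± 122 and Mcl1 with 377 ± 93.1 TPM. In the table made from the reads Mcl1 with 457 and Pim1 with 388 TPM stood above Icam1 with 375.

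**Figure D4:**
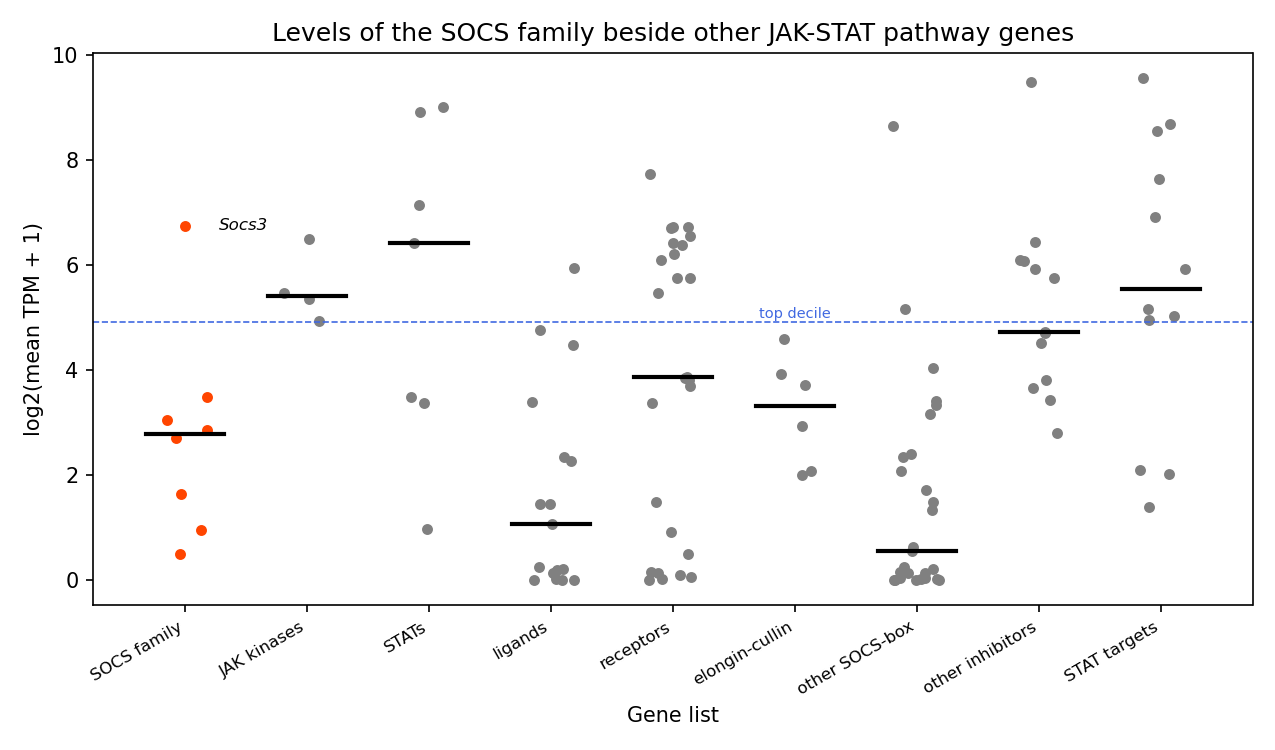
Mean level, as log2(TPM + 1), of the 8 SOCS family genes and of 8 lists of JAK-STAT pathway genes; each point is a gene and each bar the median of its list. The dashed line is the lower edge of the most abundant decile of coding genes, at 29.1 TPM; Socs3 is the 1 SOCS gene above it, while the median of JAK kinases, STATs and STAT targets lies above it.

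Set among these 112 pathway genes, Socs3 had rank 12 by mean TPM of the gene tables, which give all levels in this paragraph unless stated. In the table made from the reads Socs3, with 83.7 TPM, had a lower rank. There it stood below Cbl, Il15, Jak1, Tyk2, Stat6, Ptpn1, Ptpn6, Usp18 and Bcl3, all of which it exceeded in the gene tables. The same held for the receptor genes Csf2rb, Csf3r, Il10rb, Il2rg, Ifngr1, Il10ra and Il15ra. Ptpn1 averaged 267.6, Csf2rb 182.8 and Il2rg 124.9 TPM there. Every gene above Socs3 in the gene tables stayed above it, among them Junb with 99.1 TPM. In the gene tables the nearest neighbours of Socs3 in level were Junb, another STAT3-responsive gene, with 119.7 TPM above and Il2rg with 105 TPM below. The ranges of all 3 overlap. Socs4 stood between Pias2 with 11.5 and Stat5a with 10.2 TPM, Socs5 between Asb6 with 7.94 and Cul2 with 6.60 TPM, and Socs7 between Cul2 and Ptpn11 with 5.95 TPM. Socs6 followed Ptpn11 and stood above Rab40c with 4.27 TPM. Socs1 stood between Spsb2 with 2.27 and Il12rb2 with 1.79 TPM, and Cish between Stat4 with 0.940 and Lifr with 0.883 TPM. Likeness here is of mean level over 3 libraries and nothing more.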

How the data were processed

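The authors deposited gene and transcript tables laid out as RSEM writes them (expected counts and TPM), on mm10 with GENCODE M21 per the file headers, and a transcript table of estimated counts and TPM in the layout of kallisto, made directly from the reads. Aligner, programs and versions: not given in the sources used here. Gene tables gave levels, and the deposited posterior SD of a count was read only as a check on shared reads. Entries outside annotated genes (0.279% to 1.13% of counts) were left out. Counts were rounded for the chi-square test (Python 3.11.15, scipy 1.17.1) with TMM factors and dispersion from edgeR 4.0.16. DESeq2 1.42.0 gave alternative size factors. Depth was 13802716 to 17187524 counts, and the interval for a count covers counting error only. Trac was not found among protein-coding genes. Members and lists were chosen with earlier results of these data known. Named were all members, transcripts with at least 5% of a detected member's TPM in either table, the 3 highest and up to 3 undetected genes of each list, and each member's neighbours in level. The values of 1 gene that this rule names are not reported here. Of 8 members, 4 had a promoter window in the RefSeq table (GRCm38.p6).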

Additional observations from a re-analysis of the deposited data

How the results depend on the processing

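Leaving out each library in turn kept 7 members detected and 1 in the top decile. A minimum of 3 counts, or the table made from the reads, gave 8 detected, and a minimum of 30 gave 7. The count of neighbouring pairs with separate ranges then ran from 3 to 5, highest without replicate 1. Members beyond counting noise were 5, 4 and 3 of 7 without replicates 1, 2 and 3. The shares of all tested genes beside them were 46.8%, 29.6% and 44.2%. Socs6 did not pass without replicate 2, and Socs5 and Cish did not without replicate 3. Total counts gave 7 of 7, beside 68.4%, and DESeq2 size factors 5 of 7, beside 57.7%. No filter beyond a count above 0 gave 5 of 8, beside 42.2%, and the table made from the reads 5 of 8, beside 61.3%. TPM rescaled over protein-coding genes raised every level, to 353 for Socs3, 33.6 for Socs4, 23.9 for Socs5, 20.5 for Socs7, 18.1 for Socs6, 7.05 for Socs1, 3.05 for Cish and 1.36 for Socs2. The table made from the reads moved Socs2 to 2.61, Socs6 to 8.66 and Socs7 to 8.19 TPM. Of the transcripts that led in the alignment, it moved the share to 86.6% for Socs1-202, 96.5% for Socs3-201 and 84.1% for Socs4-201. Socs6-201 moved to 22.3% and Socs7-201 to 41.2%, below the non-coding Socs6-204 with 32.5% and Socs7-202 with 58.8%. Chosen after the data were seen, protein-coding transcripts alone gave 4.81 TPM for Socs6, 3.73 for Socs5, 3.72 for Socs7, 0.303 for Socs2 and 0.203 for Cish. Shares of counts in place of TPM were also chosen after the data were seen. They gave 99.95% for Socs3-201, 71.5% for Socs5-201, 64.0% for Socs6-201 and 97.5% for Socs7-201. Rescaling over fewer genes raises levels by construction, and TPM divides by length where counts do not. The cause of the other shifts was not tested. Counts below 10, as for Socs2, carry intervals too wide to order the libraries. No paired analysis was possible because all 3 libraries belong to 1 group.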
